A study of Mus musculus with 24 samples.

Results

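The 10 genes described here lie on mouse chromosome 15 between 55 and 63 Mb, on the stretch that holds the transcription factor gene Myc. In chromosome order they are Mtbp, Derl1, Tbc1d31, 9130401M01Rik, Zhx1, Atad2, Wdyhv1, Fam91a1, Sqle and Myc. They were chosen by name from the table of KP lung tumours because of their levels over its 5 groups, so every KP value of theirs is given as a description, without a test. The KP table holds 36040 genes, of which 11193 passed a filter on low values (a mean of at least 144.2 normalised counts in 1 group or more), and all 10 members passed. The same filter, at 130.4 normalised counts, kept 10581 of 31618 genes in the LLC1 table, again with all 10 members. Another 78 genes of the same stretch were in the KP table, and the 21 of them that passed the filter are no members and were tested.

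RNA came from CD45-negative, live cells sorted on day 15 out of tumours grown in mice from injected cells. KP cells come from a genetically engineered mouse lung cancer model that carries p53 flox/flox, and LLC1 is the Lewis lung carcinoma line, and neither is given a treatment in the labels. The KP groups were 1st relapse, 2nd relapse and late relapse (tumours of lines that had relapsed after immune checkpoint blockade), chronic IFNG (from cells exposed to low, long-lasting interferon gamma) and parental, and the LLC1 groups were chronic IFNG, relapsed and parental. Each group held 3 libraries, and the labels used here do not say how many relapsed tumours or clones a relapse line was derived from, or whether the 3 replicates were separate animals, so p-values measure the spread between these libraries. Counts are normalised within a line and were not compared between lines.

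Myc encodes a transcription factor that drives growth, ribosome production and entry into the cell cycle, and in human cancers the corresponding stretch around it is a common site of DNA copy gain. Its neighbours have unrelated functions: Sqle makes the rate-limiting squalene epoxidase of sterol synthesis, Atad2 a bromodomain ATPase that in human cancer cells acts with MYC and E2F factors, Derl1 a channel component for degrading misfolded proteins of the endoplasmic reticulum, and Mtbp a partner of the replication-initiation factor Ticrr. DNA was not measured in these data, and neither the number of gene copies nor the rate of transcription can be read from RNA levels.

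The depth estimated from the counts was 13.4 to 35 M fragments per library over both lines. The leukocyte gene Ptprc, which encodes CD45, ranged from 12.7 to 219 normalised counts over the KP libraries, and the epithelial gene Epcam was 635 or more in each of them. In the LLC1 libraries, which were normalised on their own, Epcam was at most 28.3. The lines were not compared. Of 13 fibroblast and pericyte markers 11 passed the filter in KP tumours, and the summed level of all 13 differed widely between the groups. It was 64609 to 88988 normalised counts in 1st relapse, 1675 to 2562 in 2nd relapse, 13089 to 61718 in late relapse, 10113 to 31901 in chronic IFNG and 14841 to 23840 in parental tumours. Of the 11, the limma test described with the lists called 10 higher and 0 lower in 1st relapse and 0 higher and 9 lower in 2nd relapse. Over all kept genes 25.4% were called higher and 25.5% lower in 1st relapse, and 36.8% and 29% in 2nd relapse. The epithelial counts that follow are to be read against the same shares. Of 8 kept epithelial markers 5 were called higher and 0 lower in 1st relapse (median 0.70) and 7 higher and 0 lower in 2nd relapse (0.89), with Epcam at 6779 to 8497 normalised counts in 1st relapse, 1299 to 1649.8 in 2nd relapse and 635 to 914 in parental tumours. The sum over the 9 epithelial markers with KP values, kept or not, was 113953 to 138646 in 1st relapse, 199050 to 216137 in 2nd relapse and 99646 to 101678 in parental tumours. Leukocyte signals were small, and 2 of 16 leukocyte markers passed the filter, with sums over all 16 of 844 to 1232 in 1st relapse, 225 to 288 in 2nd relapse and 509 to 1110 in parental tumours. The part of these cells in the differences below was not tested, and in bulk RNA fewer cells of a type and less RNA per cell cannot be told apart.

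The members fell into different patterns along the chromosome. In 1st relapse tumours 7 of 10 were above the parental libraries without overlap, Derl1 to Wdyhv1 and Sqle, and 1, Fam91a1, was below them; over all kept genes 29.6% were above and 29.6% below without overlap. In 2nd relapse tumours all 10 were above the parental libraries without overlap, against 40.1% of kept genes above and 31.5% below. In late relapse tumours 3 were above (33.6% of kept genes) and 2 below (28.7%), and in chronic IFNG tumours 0 were above (19.9%) and 0 below (18.5%). The median log2 difference of the members from parental tumours was 1.31 in 1st relapse, 0.56 in 2nd relapse, 0.06 in late relapse and -0.03 in chronic IFNG tumours, beside -0.01, 0.03, 0.01 and -0.01 over all kept genes. Because the members were selected on these values, their counts are given beside the background and nothing is read from them. The 4 comparisons share the same 3 parental libraries.

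**Figure D1:**
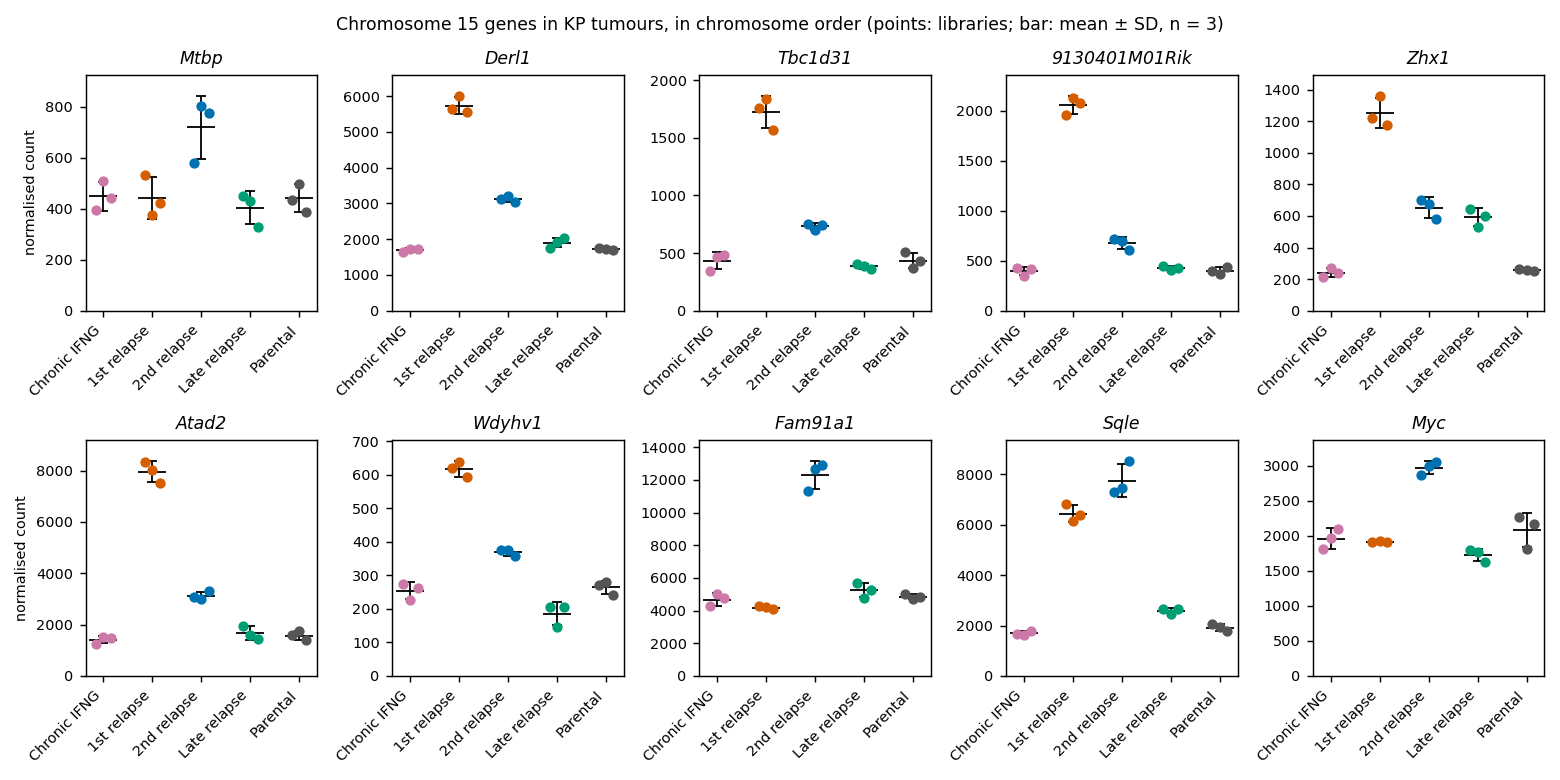
Normalised counts of the 10 genes in the 15 KP libraries, 1 panel per gene in chromosome order, each vertical axis starting at 0. Points are libraries and bars the mean ± SD (n = 3); the 1st relapse points stand highest for Derl1 to Wdyhv1 and the 2nd relapse points for Mtbp, Fam91a1, Sqle and Myc.

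Mtbp (chr15:55557408-55626423, plus strand), whose product acts with Ticrr at replication origins and binds the p53 regulator MDM2, lies farthest from Myc. Mtbp had 532, 373 and 422 normalised counts in 1st relapse tumours, 578, 803 and 775 in 2nd relapse, 451, 431 and 329.6 in late relapse, 395, 508 and 443 in chronic IFNG and 434, 498 and 388 in parental tumours. The 2nd relapse libraries stood above all others, and the other 4 groups overlapped. The log2 difference was 0.40 in 2nd relapse (1.63-fold of the parental mean) and 0.00 in 1st relapse, a value that was -0.08 under quantile normalisation. Mtbp overlaps the oppositely oriented Mrpl13 by 341 bases, and whether the counting used strand is not given in the sources used here, so reads in the overlap could belong to either gene.

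The 6 members from Derl1 to Wdyhv1 follow one another within 289 kb with no other kept gene between them, and all 6 had their highest level in 1st relapse tumours and their second highest in 2nd relapse tumours. Derl1 (chr15:57869502-57892448, minus strand) encodes a membrane protein that helps extract misfolded proteins from the endoplasmic reticulum. Derl1 had 5639, 6002 and 5555 normalised counts in 1st relapse tumours, 3133, 3199.6 and 3044 in 2nd relapse, 1759, 1914 and 2022 in late relapse, 1628, 1712 and 1735 in chronic IFNG and 1743, 1719 and 1701 in parental tumours. The 1st relapse libraries were far above the rest, the 2nd relapse libraries lay between, and late relapse was slightly above parental without overlap. The log2 difference from parental tumours was 1.48 in 1st relapse (3.33-fold), 0.70 in 2nd relapse (1.82-fold), 0.11 in late relapse (1.1-fold) and -0.02 in chronic IFNG tumours.

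Tbc1d31 (chr15:57912199-57970067, plus strand) encodes a TBC-domain protein that in human cells is found at centriolar satellites. Tbc1d31 had 1760.2, 1842 and 1568 normalised counts in 1st relapse tumours, 756, 696 and 746 in 2nd relapse, 407, 388 and 359 in late relapse, 346, 468 and 482 in chronic IFNG and 506, 371 and 428 in parental tumours. Only the first 2 of these groups stood apart; late relapse, chronic IFNG and parental libraries overlapped. The log2 difference was 1.30 in 1st relapse (3.96-fold) and 0.43 in 2nd relapse (1.68-fold). 9130401M01Rik (chr15:58022259-58034325, minus strand) carries a clone name in place of a gene symbol. 9130401M01Rik had 1952, 2131 and 2079 normalised counts in 1st relapse tumours, 717, 697 and 611 in 2nd relapse, 448, 407 and 428 in late relapse, 423, 345 and 414 in chronic IFNG and 392, 367 and 439 in parental tumours. As with Tbc1d31, late relapse, chronic IFNG and parental libraries overlapped. 9130401M01Rik had the highest fold of any member in 1st relapse, 5.14-fold of the parental mean (1.56 log2), and 1.69-fold in 2nd relapse (0.42 log2).

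Zhx1 (chr15:58047003-58076541, minus strand) encodes a zinc finger and homeobox protein that represses transcription. Zhx1 had 1219.8, 1361 and 1179.9 normalised counts in 1st relapse tumours, 703, 677 and 579 in 2nd relapse, 644, 533 and 599 in late relapse, 212, 267 and 239.9 in chronic IFNG and 261, 255 and 253 in parental tumours. Unlike the other members of the run, its late relapse libraries overlapped those of 2nd relapse and stood well above the parental ones. Zhx1 differed from the parental level by 1.31 log2 in 1st relapse (4.89-fold), 0.69 in 2nd relapse (2.55-fold), 0.61 in late relapse (2.31-fold) and -0.04 in chronic IFNG tumours. Both 9130401M01Rik and Zhx1 share sequence on the same strand with a read-through gene, Gm29394, which had at most 39.0 normalised counts in any KP library.

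Atad2 (chr15:58094044-58135082, minus strand), the bromodomain ATPase, had the largest log2 difference of the members. Atad2 had 8322, 8020.1 and 7519 normalised counts in 1st relapse tumours, 3076, 2994 and 3304 in 2nd relapse, 1955, 1608 and 1456 in late relapse, 1256, 1498 and 1462 in chronic IFNG and 1592, 1733 and 1389 in parental tumours. The 1st relapse libraries were apart from and above 2nd relapse, which in turn stood apart from the overlapping late relapse, chronic IFNG and parental libraries. The log2 difference was 2.02 in 1st relapse (5.06-fold), 0.81 in 2nd relapse (1.99-fold), 0.07 in late relapse and -0.12 in chronic IFNG tumours. Wdyhv1 (chr15:58141377-58158665, plus strand) encodes an enzyme that deamidates N-terminal glutamine and so feeds proteins into the N-degron pathway of degradation. Wdyhv1 had 620.4, 638 and 592 normalised counts in 1st relapse tumours, 376, 375 and 357 in 2nd relapse, 206, 146 and 205 in late relapse, 274, 226 and 263 in chronic IFNG and 270.4, 279.9 and 242 in parental tumours. It had the smallest difference of the run, 0.62 log2 in 1st relapse (2.34-fold) and 0.22 in 2nd relapse (1.4-fold), and its late relapse libraries lay below all parental ones (-0.21 log2).

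Fam91a1 (chr15:58415468-58457740, plus strand) follows Wdyhv1 with the kept genes Fbxo32 and Anxa13 between them, and encodes a protein that in human cells works with WDR11 and TBC1D23 in capturing vesicles at the Golgi. Fam91a1 had 4279, 4204 and 4071 normalised counts in 1st relapse tumours, 11325, 12646 and 12902 in 2nd relapse, 5676, 4793 and 5259.6 in late relapse, 4250.1, 4987 and 4771 in chronic IFNG and 5002, 4724 and 4825 in parental tumours. Unlike the run, its 2nd relapse libraries were far above all others, and 1st relapse libraries were all below the parental ones. Fam91a1 differed from the parental level by 1.25 log2 in 2nd relapse (2.53-fold) and -0.19 in 1st relapse (0.863-fold). In a list of 15 paralogs and partners of the members, 2 were called higher and 5 lower in 1st relapse and 4 higher and 4 lower in 2nd relapse tumours, with medians of -0.04 and -0.05. A gene was called at an adjusted p below 0.05 in limma, a linear model over all kept genes of a line with Benjamini and Hochberg adjustment. Over all kept genes 25.4% were called higher and 25.5% lower in 1st relapse, and 36.8% higher and 29% lower in 2nd relapse tumours, so the list's counts lie near the background.

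Sqle (chr15:59315077-59331192, plus strand), the squalene epoxidase gene, was high in both of these relapse groups. Sqle had 6822, 6148 and 6372 normalised counts in 1st relapse tumours, 7300.0, 7446 and 8522 in 2nd relapse, 2659, 2477 and 2648 in late relapse, 1659.7, 1640.2 and 1794 in chronic IFNG and 2058, 1929 and 1779 in parental tumours. The order 2nd relapse, 1st relapse, late relapse, parental held with no overlap between neighbours, and chronic IFNG overlapped parental. The log2 difference was 1.75 in 2nd relapse (4.04-fold), 1.51 in 1st relapse (3.35-fold), 0.35 in late relapse (1.35-fold) and -0.14 in chronic IFNG tumours. The other genes of the pathway were called to different extents. Of 22 other sterol synthesis and uptake genes, 20 were called higher and 1 lower in 2nd relapse (median log2 difference 0.77), 10 higher and 1 lower in 1st relapse (0.16), and 14 higher and 0 lower in late relapse (0.29). In chronic IFNG tumours 1 was called higher and 2 lower (-0.04). Beside the shares of all kept genes given above for 2nd and 1st relapse, 31% were called higher and 25.9% lower in late relapse, and 12.8% and 9% in chronic IFNG tumours.

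In 2nd relapse tumours the lanosterol demethylase gene Cyp51 rose by a log2 difference of 1.47 (limma adjusted p 7.47e-09), Msmo1, another enzyme that removes methyl groups from sterols, by 1.45, the mevalonate pathway enzyme Hmgcs1 by 1.24, and Insig1, which holds the sterol sensor in the endoplasmic reticulum, by 1.23. The Sqle difference was above each of these. In 1st relapse tumours the largest rises on the list were Tm7sf2 (0.54), a sterol reductase, Fdps (0.42), which makes farnesyl pyrophosphate, and Ebp (0.36), a sterol isomerase, while Hsd17b7 fell by 0.41. The Sqle difference there, 1.51, stood above the highest of the 22. Sqle was chosen because of its KP levels, so nothing is read from its place above the list in either relapse group.

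Myc (chr15:61985391-61990374, plus strand) itself did not share the 1st relapse pattern. Myc had 1918, 1922 and 1911 normalised counts in 1st relapse tumours, 2874, 2998 and 3052 in 2nd relapse, 1793, 1768 and 1628 in late relapse, 1807, 1968 and 2104 in chronic IFNG and 2268, 1809 and 2175 in parental tumours. The 2nd relapse libraries were above all others, 1st relapse and chronic IFNG libraries overlapped the parental ones, and late relapse libraries were all below them. The log2 difference was 0.43 in 2nd relapse (1.43-fold), -0.09 in 1st relapse, -0.21 in late relapse and -0.07 in chronic IFNG tumours. Pvt1 (chr15:62037986-62378096, plus strand), a long non-coding RNA gene that starts 47612 bases past the end of Myc, went another way. It rose in 1st relapse tumours to 1424 ± 129.9 normalised counts, against 585 ± 59.4 in parental tumours (SD, n = 3 each; log2 difference 0.85, limma adjusted p 2.68e-08). It was 571 ± 24.5 in 2nd relapse tumours (-0.02, limma adjusted p 0.772) and fell to 371 ± 9.33 in late relapse (-0.35, 7.87e-05) and 446 ± 31.6 in chronic IFNG tumours (-0.22, 0.00997).

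Of 30 known MYC target genes, 16 were called higher and 5 lower in 2nd relapse tumours (median 0.17), 2 higher and 8 lower in 1st relapse (-0.07) and 5 higher and 13 lower in late relapse (-0.11). In chronic IFNG tumours 1 was called higher and 7 lower (-0.13). Over all kept genes the shares called higher and lower were 36.8% and 29% in 2nd relapse, 25.4% and 25.5% in 1st relapse, 31% and 25.9% in late relapse, and 12.8% and 9% in chronic IFNG tumours. The chronic IFNG count of 7 was 2 without parental replicate 1 or chronic IFNG replicate 1 and 4 without parental replicate 2, parental replicate 3 or chronic IFNG replicate 3, and the 1st relapse count of 8 was 5 without parental replicate 1 or 1st relapse replicate 1. With all libraries, the 7 was 14 under median centring, 13 with array weights and 3 with no filter. The glycolytic enzyme Ldha (0.78) and the mitochondrial chaperone Hspd1 (0.69) rose most in 2nd relapse tumours, and the nucleolar protein gene Ncl fell by 0.69 in 1st relapse. Among 22 partners and regulators of MYC, 8 were called higher and 8 lower in 2nd relapse tumours, with the MYC antagonist genes Mxd1 (0.99) and Mxi1 (0.63) higher and the ubiquitin ligase gene Huwe1 lower (-0.76). These 8 and 8 of 22 lie near the 36.8% of all kept genes called higher and 29% called lower. In 1st relapse 3 were called higher and 5 lower (25.4% and 25.5% of all kept genes), the 5 becoming 3 without parental replicate 3 or 1st relapse replicate 2, and the paralog Mycn rose by 0.75 (limma adjusted p 1.01e-06). That 5 was 9 under median centring and 8 with array weights.

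The genes between and around the members are given next in chromosome order, with the members' own values as a description. Of the 21 other kept genes of the 55 to 63 Mb stretch, 9 were called higher and 5 lower in 1st relapse tumours by limma, 14 in all, against 50.9% of kept genes called. From Taf2 to Zhx2, the 7 kept genes before Derl1 including Mtbp, the log2 differences ranged from -0.33 to 0.89 with 3 of 7 above 0. Taf2, a subunit of the general transcription factor TFIID, fell by 0.33 and Zhx2, a paralog of Zhx1 that ends 29670 bases before Derl1, fell by 0.25 (limma adjusted p 0.00132). The 6 members of the Derl1 to Wdyhv1 run ranged from 0.62 to 2.02. The next 9 kept genes, Fbxo32 to Ndufb9 with Fam91a1 among them, ranged from -0.37 to 0.27 with a median of -0.06. The differences then became positive again at Mtss1, 1746 bases past Ndufb9, and the 7 kept genes from Mtss1 to 9930014A18Rik, with Sqle among them, ranged from 0.96 to 1.55. These limits between groups of neighbours, and the naming of 9930014A18Rik, were chosen after the values were seen. That gene lies inside the coordinates of Fam84b on the other strand and passed the filter through the 1st and 2nd relapse groups alone. It therefore had to be above parental tumours in 1st relapse, and it is among the 9 called higher and these 7.

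In the genes from Mtss1 on, Mtss1, an actin regulator, averaged 2803 ± 79.4 normalised counts in 1st relapse tumours and 1208 ± 195 in parental tumours (log2 difference 0.96, limma adjusted p 4.58e-07). Washc5, a subunit of the WASH complex of endosomes, averaged 7764 ± 326 and 2603 ± 63.9 (1.40), Nsmce2, a SUMO ligase of the Smc5 and Smc6 complex, 2044 ± 150.1 and 770.5 ± 54.2 (1.01), and the pseudokinase gene Trib1 3466 ± 126 and 1176 ± 123 (1.24; SD, n = 3 each). Fam84b, the last protein-coding gene kept before Myc, averaged 1884 ± 102 in 1st relapse and 354 ± 33.8 in parental tumours (1.55). All 5 rose. The run Derl1 to Wdyhv1, the genes Mtss1 to 9930014A18Rik, and Pvt1 stood above the parental level in 1st relapse tumours. For the members among them this is a description only. Of the 8 tested genes between the 2 runs, Fbxo32 to Ndufb9 without Fam91a1, 3 (Tmem65, Trmt12 and Rnf139) were called lower, 1 (Anxa13) higher and 4 in neither direction, and Myc overlapped parental tumours. Anxa13 averaged 49.3 ± 7.29 normalised counts in 1st relapse and 15.1 ± 7.72 in parental tumours (SD, n = 3 each; log2 difference 0.27, limma adjusted p 0.00791), levels at which the deposited scale compresses differences. Col14a1, a collagen gene of fibroblasts, rose by 0.89 (limma adjusted p 0.0144), with adjusted p of 0.0552 without parental replicate 1 and 0.0547 without 1st relapse replicate 3, and the fibroblast and epithelial marker sums given above were also higher in 1st relapse; their part in this and the other 1st relapse differences was not tested. The call of Trmt12 (-0.12, limma adjusted p 0.0238) was lost without parental replicate 1 or 3 or 1st relapse replicate 3.

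**Figure D2:**
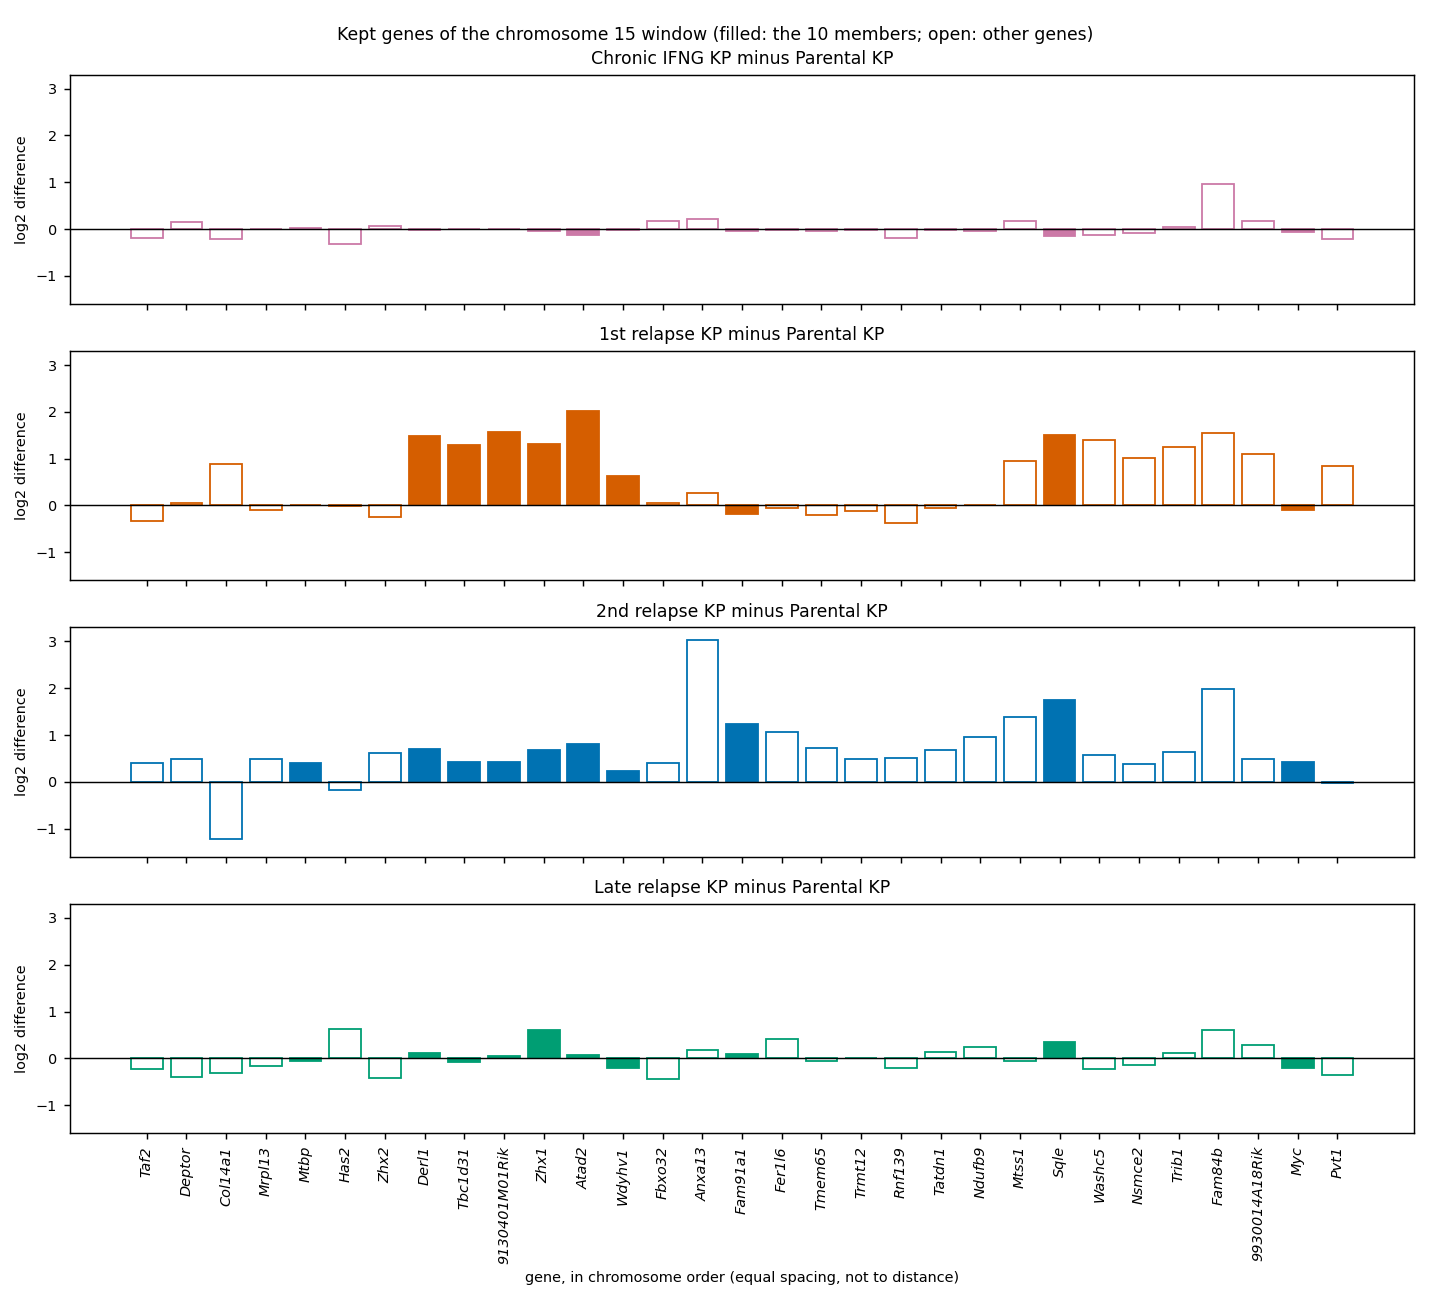
Log2 difference of each KP group from parental tumours for the kept genes of the chromosome 15 stretch, in chromosome order with equal spacing; filled bars are the 10 members and open bars the other genes. In 1st relapse tumours the bars above 0.6 are the runs Derl1 to Wdyhv1 and Mtss1 to 9930014A18Rik together with the single genes Col14a1 and Pvt1, while in 2nd relapse tumours all but Col14a1, Has2 and Pvt1 are positive.

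In 2nd relapse tumours the differences were spread over the whole stretch. Of the 21 other genes 18 were called higher and 1, Col14a1, lower (limma, 65.8% of kept genes called), with a median of 0.50. The exceptions were Has2, a hyaluronan synthase (-0.17, limma adjusted p 0.0802), and Pvt1. The Has2 result depended on the setting. It was called lower under quantile normalisation (limma adjusted p 0.0141), median centring (0.0367) and array weights (0.0399), and with only the 2nd relapse and parental groups fitted (0.0252). Anxa13, an annexin of epithelia, averaged 2393 ± 247 normalised counts in 2nd relapse and 15.1 ± 7.72 in parental tumours (SD, n = 3 each; log2 difference 3.02). It passed the filter through the 2nd relapse group alone, so its difference there had to be positive, and it is among the 18. Fer1l6 passed through the 2nd and late relapse groups alone, and 9930014A18Rik through 1st and 2nd relapse alone. Both therefore also had to be above parental tumours in 2nd relapse and are among the 18. Col14a1 passed through every group but 2nd relapse, so it had to be lower there. The epithelial marker sums given above were also higher in 2nd relapse, and their part was not tested. Fam84b rose by 1.98, Mtss1 by 1.38 and Fer1l6, a ferlin-family gene, by 1.06. From Fbxo32 to Ndufb9 all 9 kept genes were positive in 2nd relapse, from 0.41 to 3.02 with Fam91a1 at 1.25. The 6 members from Derl1 to Wdyhv1 ranged from 0.22 to 0.81.

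Set directly against 1st relapse tumours, 2nd relapse tumours were lower without overlap for the 6 members from Derl1 to Wdyhv1 and higher without overlap for Mtbp, Fam91a1, Sqle and Myc. The log2 differences of the 6 ran from -1.21 for Atad2 to -0.40 for Wdyhv1, and were 1.44 for Fam91a1, 0.52 for Myc, 0.40 for Mtbp and 0.25 for Sqle. Over all kept genes 37.3% were higher and 30.8% lower without overlap in that comparison. Of the 21 other window genes 14 were called higher and 6 lower (limma, 62.2% of kept genes called, 34.3% higher and 28% lower). All 9 kept genes from Fbxo32 to Ndufb9 were positive, and Washc5 (-0.82), Nsmce2 (-0.64), Trib1 (-0.61) and Pvt1 (-0.87) fell. Anxa13 passed the filter through 2nd relapse alone and Fer1l6 through 2nd and late relapse alone. Both therefore had to be higher in 2nd than in 1st relapse, and both are among the 9 and the 14. Col14a1 passed through every group but 2nd relapse, so it had to be lower there than in 1st relapse, and it is among the 6.

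In late relapse tumours 6 of the 21 genes were called higher and 8 lower (limma, 56.9% of kept genes called). Fer1l6 passed the filter through 2nd and late relapse alone, so it had to be above parental tumours there. Zhx2 fell by 0.41 there while Zhx1 was 0.61 above the parental level, and Fbxo32, a ubiquitin ligase gene of muscle wasting, fell by 0.44. Has2 rose by 0.63 and Fam84b by 0.61. The call of Tatdn1 (0.14, limma adjusted p 0.0282) was lost without parental replicate 1 or 3 or late relapse replicate 2 or 3. In chronic IFNG tumours 2 were called higher and 4 lower (21.8% of kept genes called), counts that became 1 and 2 without chronic IFNG replicate 1, and 1 higher and 5 lower without chronic IFNG replicate 3. Fam84b rose to 1095 ± 251 normalised counts in chronic IFNG, against 354 ± 33.8 in parental tumours (SD, n = 3 each; log2 difference 0.95, limma adjusted p 5.24e-06), whereas the members differed by -0.14 to 0.01. The 6 calls were 3 without chronic IFNG replicate 1, and the fall of Taf2 (-0.20) was also lost without chronic IFNG replicate 2 or parental replicate 1 or 2.

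The first kept genes on either side of the stretch were Enpp2 and Fam49b. Enpp2, which makes the lipid-signalling enzyme autotaxin, differed by -0.09 in 1st relapse (limma adjusted p 0.413) and rose by 0.50 in 2nd relapse, and Fam49b, an actin regulator, differed by -0.11 (limma adjusted p 0.189) and rose by 1.02. Over the rest of chromosome 15, the 1st relapse median was -0.13 for the 106 kept genes before the stretch, -0.05 for the 127 between it and 80 Mb and -0.10 for the 205 beyond. The 2nd relapse medians of the same 3 sets were 0.50, 0.60 and -0.02. Called higher were 81, 106 and 66 genes, and called lower 14, 7 and 71. Over all kept genes 36.8% were called higher and 29% lower in 2nd relapse. The limit of 80 Mb was placed after the values were seen. The medians of whole chromosomes in 2nd relapse tumours ran from -0.32 on X to 0.29 on 15, with 0.28 on 19. The members' median of 0.56 in 2nd relapse stood beside medians of 0.50 and 0.60 on either side of the stretch. Their median of 1.31 in 1st relapse stood beside medians of -0.13 and -0.05. Because the members were chosen on these values, nothing is read from either contrast. The 21 other kept genes of the stretch had medians of 0.50 in 2nd relapse and 0.04 in 1st relapse.

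**Figure D3:**
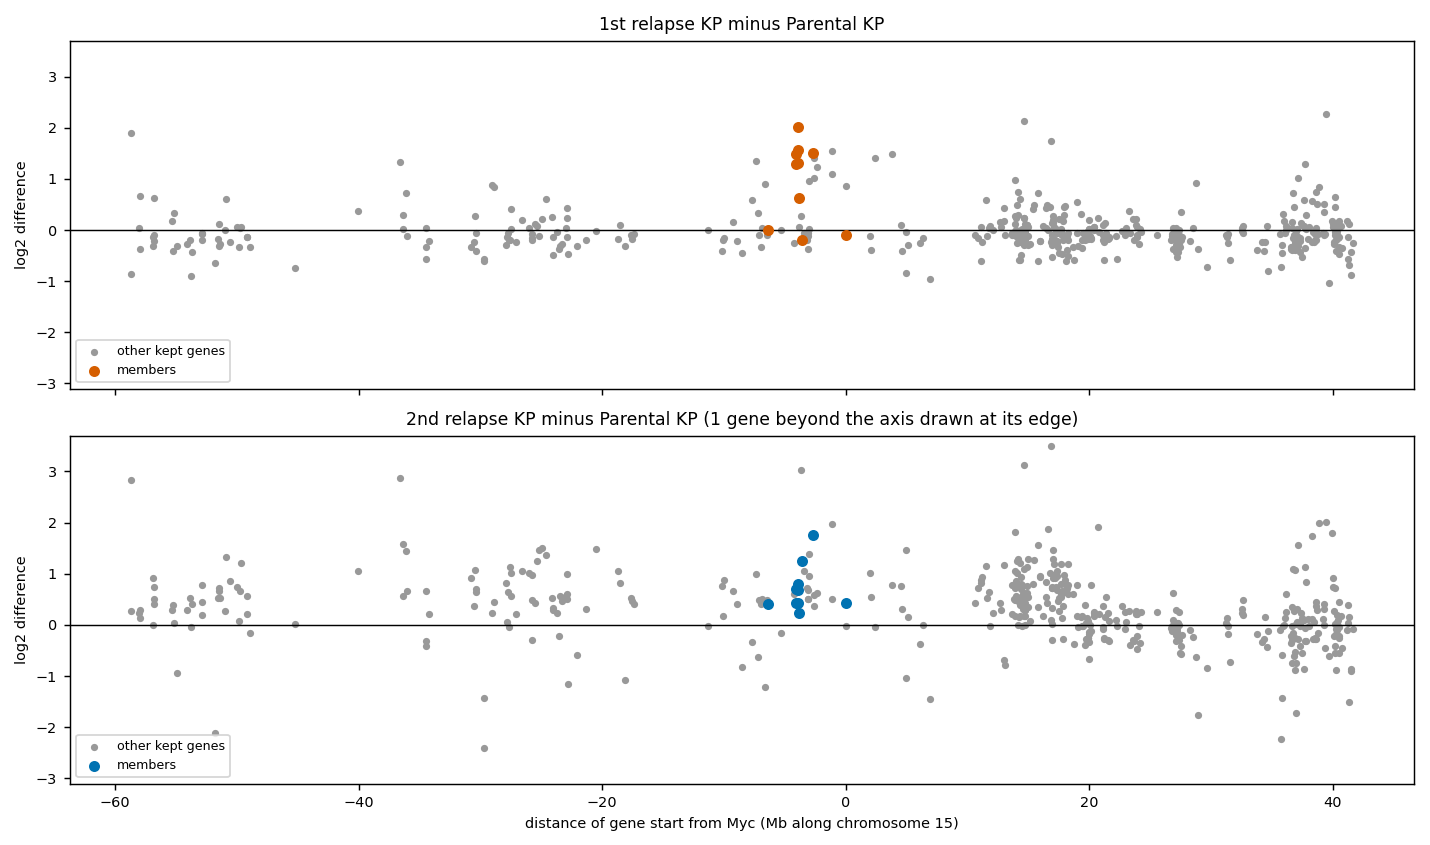
Log2 difference from parental KP tumours of the 469 kept genes of chromosome 15, by the distance of the gene start from Myc in Mb. Coloured points are the 10 members and grey points the other genes; in 1st relapse tumours the members from Derl1 to Wdyhv1 and Sqle stand above a chromosome centred near 0, and in 2nd relapse tumours the points on the left and shortly past Myc are centred above 0.

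Among themselves the members of the Derl1 to Wdyhv1 run were strongly correlated over the 15 KP libraries (Pearson r 0.738 to 0.986 over 15 pairs), which is a description of points that share libraries and groups. Within groups, after each group's mean was removed, r ran from -0.46 to 0.46. With the mean profile of all 10 members, r was highest for Derl1 (0.962), Sqle (0.950) and Atad2 (0.949) and lowest for Mtbp (0.421), Myc (0.406) and Fam91a1 (0.324). Of 11192 kept genes with a chromosome position, members included, the 8 non-members most like that profile were Efr3a (0.963), Trib1, Washc5, Fam20a, Nsmce2, Mrpl51, Ntpcr and Golt1b, of which 4 lie on chromosome 15. Efr3a (chr15:65787034-65873816, plus strand), whose product anchors a lipid kinase at the plasma membrane, lies outside the stretch, past Myc. It averaged 7302 ± 564 normalised counts in 1st relapse, 4253 ± 292 in 2nd relapse, 2168 ± 179 in late relapse, 2412 ± 94.1 in chronic IFNG and 2247 ± 49.3 in parental tumours (SD, n = 3 each), with 1st relapse highest and 2nd relapse next as for Derl1.

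The members were chosen on KP values, so they were tested in LLC1 tumours. In relapsed tumours 2 of 10 members were called higher and 0 lower by limma (25.9% and 19.5% of kept genes), and in chronic IFNG tumours 0 were called higher and 2 lower (9.03% and 15.5%). Counted by libraries that did not overlap, 2 members were above and 0 below parental tumours in the relapsed group (33.6% and 25.2% of kept genes), and 0 were above and 3, Mtbp, Atad2 and Sqle, below in chronic IFNG (15% and 23.6%). Sqle had 1765, 1922 and 1960.1 normalised counts in chronic IFNG LLC1 tumours, 3657, 3762 and 3487 in relapsed and 2540.0, 2219.9 and 2318 in parental LLC1 tumours, so that relapsed libraries were all above and chronic IFNG libraries all below the parental ones. Sqle rose in relapsed tumours by a log2 difference of 0.54 (SE 0.06, limma adjusted p 4.46e-05) and fell in chronic IFNG tumours by 0.27 (SE 0.06, limma adjusted p 0.00879). Of the 22 other sterol genes 18 were called higher and 0 lower in relapsed LLC1 tumours (median 0.45), and 0 higher and 7 lower in chronic IFNG (-0.12). That 7 became 3 or 4 without any 1 of 5 libraries, parental replicates 2 and 3 and the 3 chronic IFNG replicates.

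Atad2 had 2461, 2524 and 3060.0 normalised counts in chronic IFNG LLC1 tumours, 4497, 4098 and 4290.4 in relapsed and 3626, 3867 and 3300.1 in parental LLC1 tumours. The 3 chronic IFNG libraries were below and the 3 relapsed libraries above all parental ones. The fall in chronic IFNG tumours was 0.37 log2 (SE 0.08, limma adjusted p 0.00778). The rise in relapsed tumours was 0.23 (SE 0.08, limma adjusted p 0.034), a call that was lost without parental replicate 1 (0.0658) or 3 (0.118) or relapsed replicate 1 (0.112) or 3 (0.0773). Mtbp had 603, 537 and 779 normalised counts in chronic IFNG LLC1 tumours, 913, 1193 and 875 in relapsed and 865, 909 and 803 in parental LLC1 tumours, with the chronic IFNG libraries lowest (-0.28 log2, limma adjusted p 0.0559, and 0.0144 without chronic IFNG replicate 3). Myc, at 6061 ± 668 normalised counts in chronic IFNG, 5703 ± 237 in relapsed and 5976 ± 567 in parental LLC1 tumours (SD, n = 3 each), differed by 0.02 (limma adjusted p 0.901) and -0.06 (0.585). Fam91a1 differed by -0.16 in chronic IFNG (limma adjusted p 0.114) and by 0.16 in relapsed LLC1 tumours (limma adjusted p 0.0761).

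**Figure D4:**
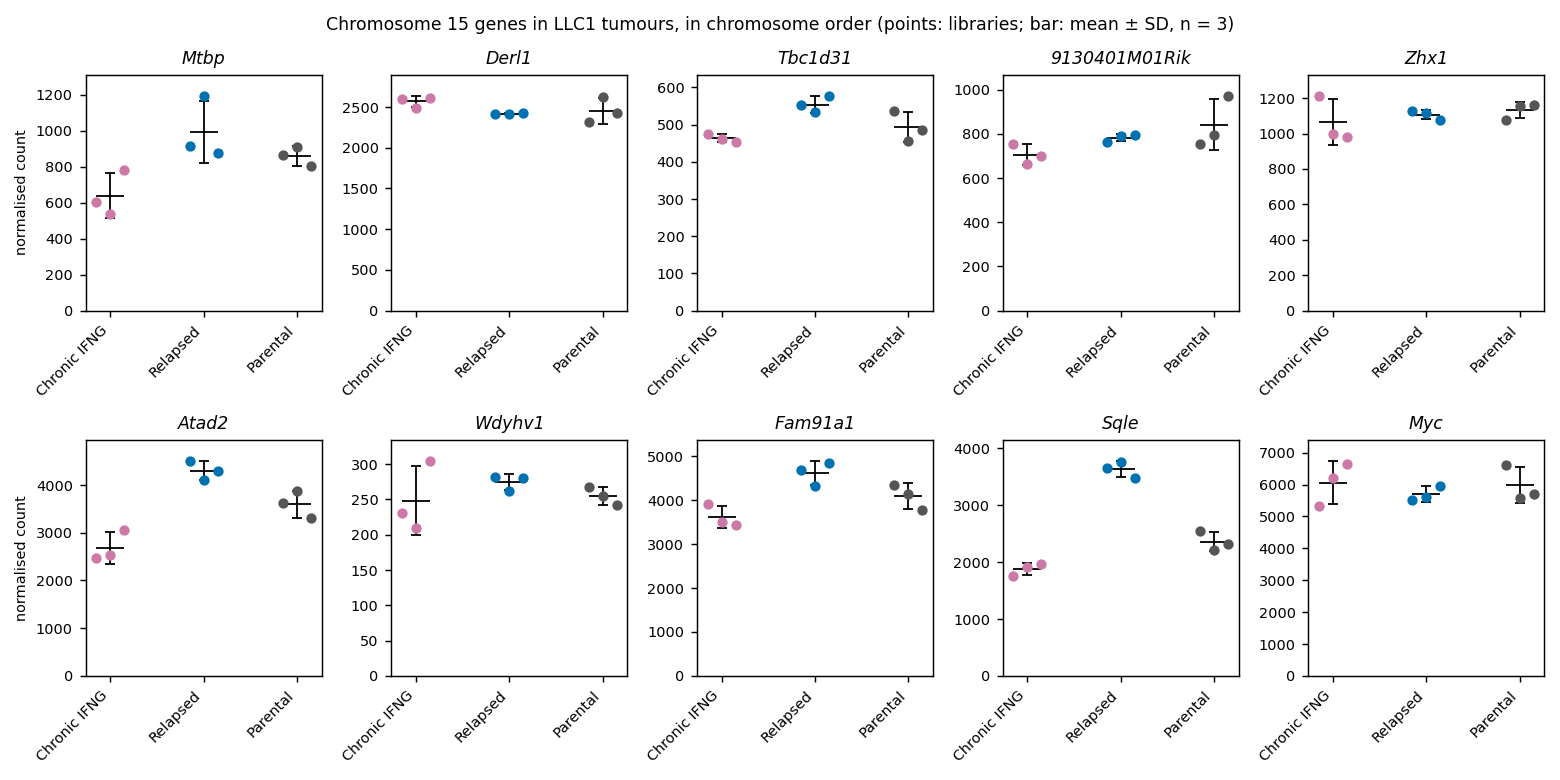
Normalised counts of the 10 genes in the 9 LLC1 libraries, 1 panel per gene in chromosome order, each vertical axis starting at 0. Points are libraries and bars the mean ± SD (n = 3); Sqle and Atad2 are highest in relapsed and lowest in chronic IFNG tumours, and Myc libraries overlap between all 3 groups.

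The run from Derl1 to Wdyhv1 did not stand apart in LLC1 tumours. Derl1 averaged 2569 ± 66.2 in chronic IFNG, 2420.2 ± 10.3 in relapsed and 2451 ± 158 normalised counts in parental LLC1 tumours (SD, n = 3 each). Apart from Atad2, its members differed by -0.16 to 0.06 in chronic IFNG and by -0.06 to 0.10 in relapsed tumours, and none of these 5 genes was called in either comparison. Of 20 other kept genes of the stretch, 7 were called higher and 3 lower in relapsed LLC1 tumours (45.4% of kept genes called) and 2 higher and 9 lower in chronic IFNG tumours (24.5%). Sntb1 passed the filter through the relapsed and parental groups alone, so it had to be lower in chronic IFNG tumours, and it is among the 9. Col14a1, kept through chronic IFNG alone, had to be higher there and is among the 2. The 9 became 4 without parental replicate 2, 5 without parental replicate 1 or 3 or chronic IFNG replicate 2, and 6 with the replicate block. The 3 lower in relapsed tumours became 1 without relapsed replicate 1 or 3. Nsmce2 rose by 0.39 and Washc5 by 0.31 in relapsed tumours, and Has2 fell by 0.93. In chronic IFNG tumours Deptor, an inhibitor of mTOR, fell by 0.68, and Col14a1, which passed the filter through the chronic IFNG group alone, averaged 412 ± 55.5 in chronic IFNG and 120.3 ± 57.9 normalised counts in parental tumours (SD, n = 3 each; 0.76 log2), beside fibroblast marker sums of 457225 to 738588 normalised counts in chronic IFNG, 283675 to 315688 in relapsed and 256868 to 364758 in parental LLC1 tumours. The part of these cells was not tested.

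Genes of processes in which other members act were counted in the same way, to be read against the shares of all kept genes called. In KP tumours these shares were 25.4% higher and 25.5% lower in 1st relapse and 36.8% and 29% in 2nd relapse. In late relapse they were 31% and 25.9%. Of 17 genes of degradation from the endoplasmic reticulum, the process of Derl1, 5 were called higher and 1 lower in 1st relapse KP tumours, with the ubiquitin-like stress gene Herpud1 up by 0.87, and 7 higher and 2 lower in 2nd relapse, with Herpud1 up by 1.54, with medians over the list of 0.02 and 0.01; the higher counts lie near the background. Median centring made the lower calls 3 and 4. Of 19 replication origin genes, the process of Mtbp, 6 were called higher and 1 lower in 1st relapse and 9 higher and 3 lower in 2nd relapse, with the helicase subunit gene Mcm6 up by 0.61. Under quantile normalisation the 1st relapse count was 3 higher and 1 lower with a median of -0.02 in place of 0.05. Of 20 mitotic genes 10 were called higher and 0 lower in 1st relapse (6 without parental replicate 3 and 5 without 1st relapse replicate 1), 14 higher and 1 lower in 2nd relapse and 15 higher and 0 lower in late relapse KP tumours. In LLC1 tumours 13 mitotic genes were called higher and 0 lower in relapsed (8 without relapsed replicate 2), and 0 higher and 20 lower in chronic IFNG. Of 21 replication origin genes kept in LLC1, 7 were called higher and 0 lower in relapsed (4 without parental replicate 3 or relapsed replicate 1 or 3) and 0 higher and 13 lower in chronic IFNG tumours. That 13 became 8 without parental replicate 1 or 2 or chronic IFNG replicate 1 and 6 without chronic IFNG replicate 2. Over all kept LLC1 genes 25.9% were called higher and 19.5% lower in relapsed, and 9.03% and 15.5% in chronic IFNG tumours. Of 15 p53 target genes 5 were called higher and 3 lower in 1st relapse KP, the 3 becoming 1 without 1st relapse replicate 1, and 9 higher and 4 lower in 2nd relapse KP tumours. In relapsed LLC1 tumours the p53 targets were mostly lower, with 1 called higher and 12 lower of 16 (median -0.50). The cell cycle inhibitor gene Cdkn1a fell by 2.00 (limma adjusted p 1.27e-07), Ccng1 by 1.88 and Mdm2, which encodes the ligase that degrades p53, by 0.92. In chronic IFNG LLC1 tumours 4 of the 16 were called higher and 1 lower (2 higher and 0 lower without chronic IFNG replicate 2).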

How the data were processed

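RNA of 24 libraries (15 KP and 9 LLC1, 3 per group) was sequenced as stranded total RNA in 50-base pairs, per the labels' protocols. The authors deposited 1 table per line of values on a log2 scale; their form, with a lowest value of 8.17 in KP and 8.03 in LLC1, is that of the variance-stabilising transformation, which is inferred from the values. Salmon 1.8.0, cutadapt 2.9 and DESeq2 1.34.0 are listed, without their roles, in the submitters' processing notes, with the build GRCm38/mm10. The transformation compresses differences between low counts, and each line was normalised on its own.

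Normalised counts were calculated back from the log2 values. Depth was estimated from the steps between low values, 74.67 to 80.55% of which came within 0.15 of a whole read, and genes detected per library numbered 22104 to 30700. Log2 differences are between group means of the deposited log2 values, and folds between means of normalised counts. Genes were kept with a group mean at least 1 log2 unit above the lowest value. limma 3.58.1 (R 4.3.3, trend, all groups of a line in 1 fit) tested them, with a Benjamini-Hochberg adjusted p below 0.05 over all kept genes as the call, and was tested on simulated data. Coordinates and names come from GENCODE vM21 (GRCm38), and 85 KP and 70 LLC1 identifiers had no symbol. With 3 libraries against 3, an exact two-sided test of 1 value cannot go below 0.1, so none was used.

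The members and the gene lists were chosen with earlier results of these data known. Non-member genes are named if they lie in the 55 to 63 Mb stretch or beside it, are among the 4 of a list with the largest change, or are among the 8 most correlated with the members' mean profile; clone names were left out, and others are stated as chosen later. The fit has no replicate block. The replicate numbers come from the labels: same-numbered deviations of 1st relapse and parental libraries correlated at 0.112, 0.149 and 0.206, and the other groups did not meet the limit of 0.1 in each pair. Alternatives covered the filter, normalisation, centring, a pseudocount of 10, array weights, the stretch, the replicate block and each library left out. No sequences of the members were used here. A further allele of the KP model is not reported here.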

Additional observations from a re-analysis of the deposited data

How the results depend on the processing

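Among the called window genes, a stricter filter of 3 log2 units made the counts 8 in 1st relapse, 11 in 2nd relapse and 7 in late relapse KP tumours (14, 19 and 14 otherwise), because fewer genes were tested. A stretch of 57 to 61 Mb, also with fewer genes, gave 9 in late relapse and 3 in chronic IFNG tumours (14 and 6 otherwise). Leaving out 1 library gave 12 to 14 in 1st relapse, 19 in every case in 2nd relapse, 13 to 14 in late relapse and 3 to 6 in chronic IFNG tumours.

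The members' median difference in 1st relapse was 1.49 under the stricter filter, 1.74 with a pseudocount of 10 on normalised counts and 1.74 as a fold of mean counts, an alternative added after seeing the data, against 1.31; in 2nd relapse it was 0.75, 0.80 and 0.81, and 0.49 under quantile normalisation and 0.52 under median centring, against 0.56. The stricter filter dropped Mtbp, Tbc1d31, Zhx1 and Wdyhv1, so its medians of 1.49 and 0.75 are over the remaining members only. The other settings weigh low counts or scale the libraries differently, and the cause of their shifts was not tested. Leaving out 1 library gave 1.26 to 1.35 in 1st relapse, 0.56 to 0.59 in 2nd relapse, 0.0045 to 0.077 in late relapse, the lowest without late relapse replicate 1, and -0.055 to -0.015 in chronic IFNG tumours.

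In LLC1 tumours the 2 members called in the relapsed group became 1 with no filter, with median centring and with the replicate block, and 1 to 2 when 1 library was left out; the 2 in chronic IFNG were 2 to 3. Sqle kept its call in all of these in relapsed tumours, and the call lost was Atad2. The replicate block left the 1st relapse window count at 14. Counting error was not modelled, and the estimated depth limits the genes with the lowest counts most.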
